A study of Mus musculus with 7 samples.

Results

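Among 365 mouse protein-coding genes whose symbol is Zfp followed by a number, 84 were studied here. The RNA was recovered with the Polycomb protein Ezh2 or came from its control libraries. Each of the 84 genes gave reads that began at 15 or more different bases of its mRNA. They were chosen from a deposited table of read sequences by dropping the leading 6 bases of each read, matching the rest to the GENCODE transcripts with up to 2 mismatches, and keeping reads that fitted 1 gene only. Zfp42 and Zfp281 also reached this minimum and were left out by name. The number of sense start positions therefore chose the members, and it is given below as a description only.

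The series profiled RNA from nuclear lysates of embryonic stem cells by RNA immunoprecipitation sequencing (RIP-seq), a method that sequences cDNA made from the RNA an antibody brings down along with its protein. The labels give 7 libraries, of which 5 come from untreated wild-type cells of the strain 129X(M.castaneusX129) with an antibody to Ezh2. Another 1 used the Ezh2 antibody on Ezh2-null cells, labelled M.musculus, and 1 used IgG on wild-type cells of the 129X cross. All cells were grown with LIF, and no age or separate allele is labelled. The wild-type Ezh2 libraries include 1 technical and 1 biological replicate and 2 deeper runs of earlier samples. The table has 34072479 reads of 6540936 distinct sequences, and neither a header nor a label ties it to any of the 7 libraries. Its name holds the letters WT and BR, which may stand for wild type and biological replicate, but no label explains them. The table was treated as 1 pool with no replicates. Ezh2 could therefore not be set against IgG or the null cells, and binding to Ezh2 was not measured here. Intervals below cover counting error only, and those of start position shares treat neighbouring positions as independent.

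Most proteins in this family hold C2H2 zinc fingers, in which a pair of cysteines and a pair of histidines hold a zinc ion and the residues between them contact DNA. In many of them the fingers stand in a tandem array encoded by a single long exon, joined by a short conserved linker. Many arrays come with a KRAB domain encoded by earlier exons, which recruits Trim28 and with it the H3K9 methyltransferase Setdb1 and HP1 proteins. KRAB zinc finger proteins are known in embryonic stem cells for silencing retroelements and for keeping imprinted DNA methylation. Because their fingers arose by repeated duplication, short reads from them often match several genes.

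Sequences around start positions are shown first, since the bases beside a start recur in the results. The first set takes the coding start position with most reads in each of the 10 members with most start positions, and in Zfp511, which has the third most reads. Each is 30 bases of mRNA from the GENCODE M21 transcripts (GRCm38), 5′ to 3′. The first 18 bases end at the start position, which is the RNA base opposite the first matched base of a read, and 12 bases downstream follow. Capitals mark AG at the 7th and 8th base downstream of the start, which lie just beyond the 6 bases left out of the read, and a sequence all in lower case has no AG there.
Zfp638 (chr6:83929286-83929315, plus): agcaagttttggattatcaaatgaAGatct
Zfp106 (chr2:120539366-120539395, minus): gatgcccaggaaagagaagatgatggaaag
Zfp609 (chr9:65794861-65794890, minus): aggagaacagctcatctaagggcaAGaagg
Zfp462 (chr4:55008447-55008476, plus): agtcccacaggacctcctgtcccaggatcc
Zfp513 (chr5:31201648-31201677, minus): actaggccaagatctggagtttgaAGagga
Zfp664 (chr5:124886191-124886220, plus): ccaccagagagtgcacacaggggagaagcc
Zfp949 (chr9:88568950-88568979, plus): gacagcaggatttcgaatatatcagagaaa
Zfp511 (chr7:140037520-140037549, plus): agtgcttggttgaaagctgcccagAGaagt
Zfp451 (chr1:33776528-33776557, minus): tgccaagtgcacagaaaagagaaaAGtgag
Zfp292 (chr4:34806102-34806131, minus): aaagcgaaagaaaaaaagtaatttAGaaaa
Zfp91 (chr19:12795170-12795199, minus): cgcgagcagccgcgtgctgaggggAGgtcg

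The second set shows starts where a finger meets its linker, from the 5 members with most reads at base 62 and the 5 at base 64 of the finger unit. The finger unit runs for 84 bases, from the first cysteine codon of a finger to that of the next, with the finger itself in bases 1 to 63 and the linker in bases 64 to 84. For a start at base 62 the AG spans a pair of linker codons, and for one at base 64 it lies within the latter of them.
Zfp81, base 62 (chr17:33334508-33334537, minus): caaacatgaaagaattcacactggAGagaa
Zfp146, base 62 (chr7:30162491-30162520, minus): agagcacgaacatttccatagtagAGagaa
Zfp933, base 62 (chr4:147826584-147826613, minus): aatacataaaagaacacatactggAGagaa
Zfp945, base 62 (chr17:22851545-22851574, minus): aattcatcagagaattcatacaggAGagaa
Zfp74, base 62 (chr7:29935416-29935445, minus): tgatcacgaaaaaattcacactggAGagaa
Zfp866, base 64 (chr8:69766152-69766181, minus): tacatgagaggactcataccggagAGaaac
Zfp990, base 64 (chr4:145537791-145537820, plus): atcatcagaaaattcatacaggagAGaaac
Zfp1, base 64 (chr8:111670283-111670312, plus): tacatcagaagattcacacgggggAGaaac
Zfp74, base 64 (chr7:29935582-29935611, minus): accatcataagctccatagcagggAGcagt
Zfp664, base 64 (chr5:124885686-124885715, plus): ttcattggcgagaccacacaggagAGaagg

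The 84 members held 76720 sense reads at 3462 sense start positions. When positions within 10 bases of each other were joined, these came to 1732 sites. A member had a median of 205.5 sense reads, 27 positions and 16.5 sites, and other protein-coding nuclear genes that reach 15 positions had medians of 211 reads and 31 positions. The members, without the 2 genes left out by name, were 23.0% of the 365 symbols. Of all 21911 protein-coding nuclear genes, 23.3% reached 15 positions, a share near that of the members. Of the 365 genes, 331 had at least 1 sense read and 34 had none. Sense reads scaled to 1000000 searched reads and to each kb of exon (RPKM) ran from 0.161 for Zfp516 to 104.7 for Zfp106, with a median of 1.004. Members with 15 to 19 positions numbered 23, and 5 had 100 or more.

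**Figure D1:**
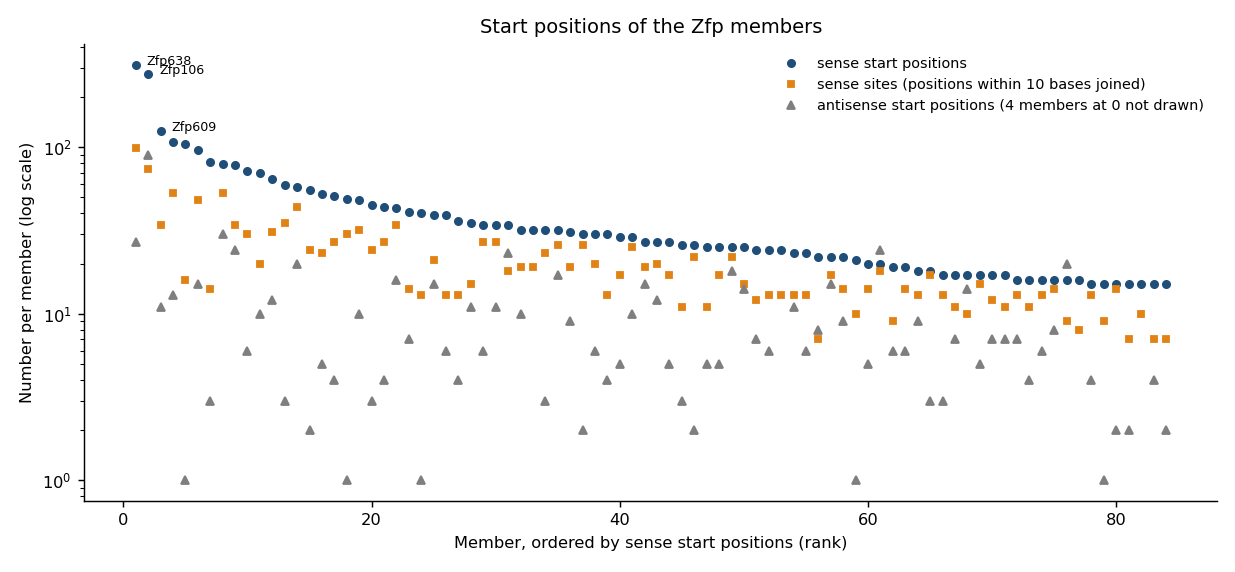
Number of sense start positions, of sense sites (positions within 10 bases joined) and of antisense start positions (y axis, log scale) for each of the 84 members, ordered by sense positions (x axis, rank). Zfp638 and Zfp106 stand at 313 and 274 positions, above Zfp609 at 125, and the last 7 members stand at 15.

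Zfp638, a large nucleic acid-binding protein with matrin-type fingers, had the most start positions. It is read from 313 sense positions at 99 sites, with 7803 sense reads (exact Poisson 95% interval 7631 to 7978) and an RPKM of 15.7. Its gene lies at chr6:83867109-83989550 on the plus strand. The highest position, coding base 449, took 1561 reads or 20.01%, and the 60 bases with most reads held 25.2%. Its reads were thus spread over more of the mRNA than those of Zfp106.

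Zfp106, an RNA-binding protein needed for motor neuron function, had the most reads, 34420 (34060 to 34790), from 274 positions at 74 sites. It is encoded on the minus strand at chr2:120506820-120563843. A single 60-base stretch held 40 of its positions and 89.2% of its reads, and coding base 231 alone had 7234 reads of 611 distinct sequences. Zfp106 thus gave 34420 of the 76720 sense reads of all members, and 30690 of these came from that stretch.

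Zfp513, known from retinal development, had 3504 reads at 105 positions but only 16 sites, and 44 positions with 93.1% of the reads fell within 60 bases. Zfp511 had 5883 reads at 41 positions, with 96.9% of the reads in 60 bases and 3121 reads at coding base 451. Both resemble Zfp106 in that a short coding stretch carries nearly all reads. Zfp945, a KRAB member, had 2552 reads, of which 2441 lay on an isoform annotated as a retained intron, and 81.0% of its reads fell in 60 bases there. Zfp503, a developmental repressor without a C2H2 match, had 968 reads, and 563 of them lay at 1 base of its 3′ UTR.

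Zfp609, a nuclear regulator of neuronal migration, followed with 125 positions and 1549 reads, none of whose positions held more than 8.59% of the reads. Zfp462, a many-fingered protein that maintains heterochromatin in stem cells, had 107 positions at 53 sites and 1253 reads. Zfp664 had 96 positions and 1154 reads. Zfp949 had 81 positions and 1262 reads. Its highest position held 5.86% of the reads, the lowest such share among members. Zfp451, a SUMO ligase, had 79 positions at 53 sites and 951 reads. Zfp292 had 78 positions and 561 reads, and Zfp91 had 72 positions and 370 reads.

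**Figure D2:**
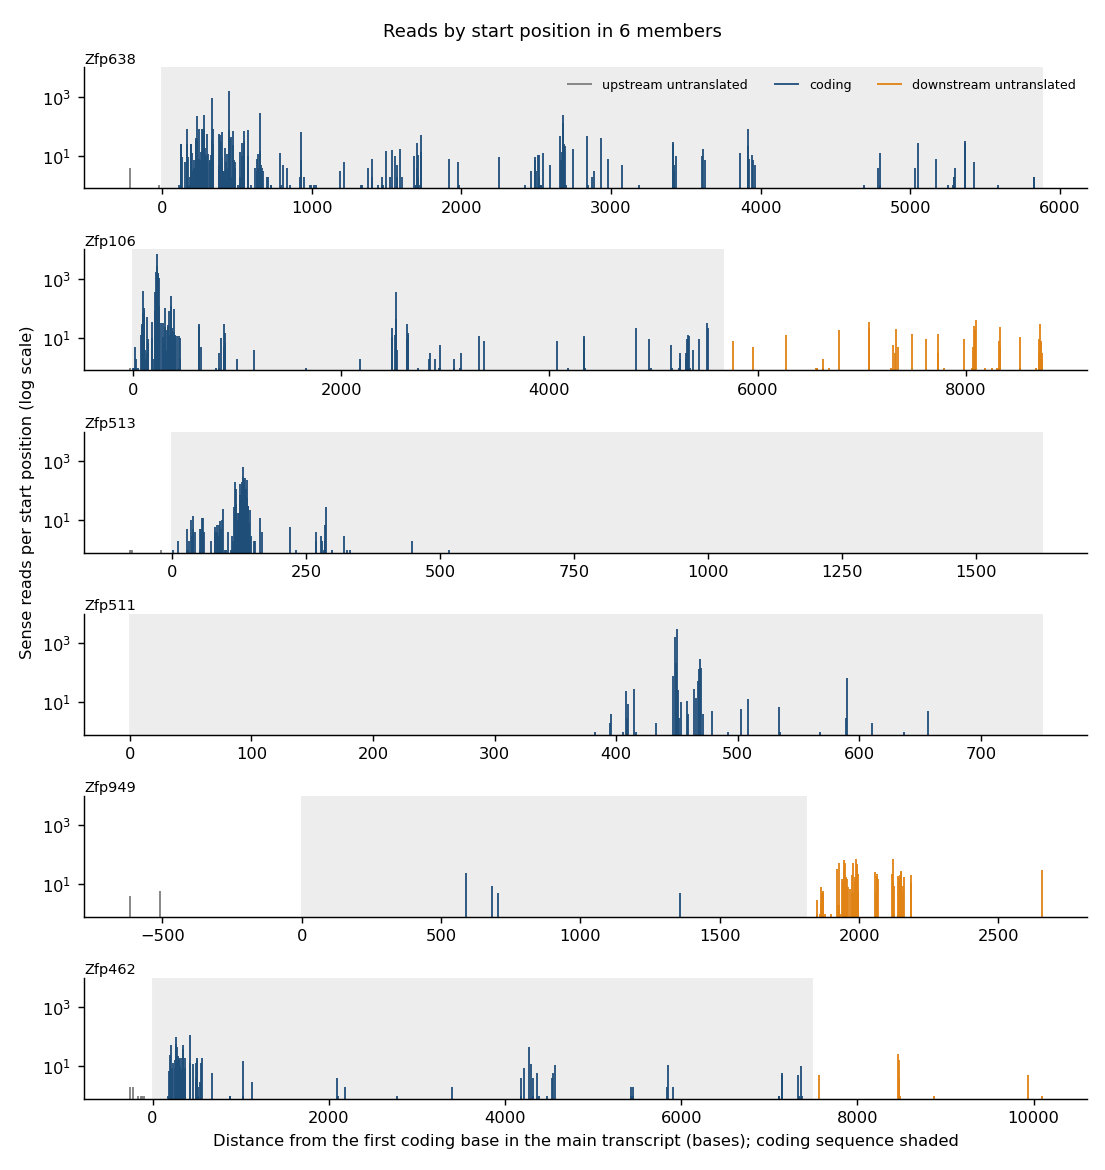
Sense reads at each start position (y axis, log scale) against the distance from the first coding base of the main transcript (x axis, bases) in 6 members, with the coding sequence shaded and lines coloured by region. Zfp106, Zfp513 and Zfp511 have 1 tall group of lines, holding 89.2%, 93.1% and 96.9% of their reads in 60 bases, and Zfp949 has 75 of its 81 positions downstream of the coding sequence.

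Across members, the highest position held a median of 17.8% of the sense reads, and 18.6% in the other coding genes with 15 positions. Zfp503 (58.2%), Zfp511 (53.1%), Zfp689 (50.8%), Zfp945 (45.8%) and Zfp516 (42.9%) had the highest shares. The 60 bases with most reads held a median of 37.7% of a member's reads, beside 36.2% in the other coding genes. They held more than 50% of the reads in 19 members, or 22.6%, beside 25.6% of the other coding genes. In this the members were near coding genes with the same minimum.

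At the minimum of 15 positions stood Zfp101 with 88 reads, Zfp160 with 76, Zfp516 with 42, Zfp689 with 61, Zfp750 with 71, Zfp839 with 77 and Zfp933 with 103. Just outside it, with 14 positions, were Zfp346 with 50 reads, Zfp473 with 88, Zfp62 with 79, Zfp64 with 40, Zfp956 with 58 and Zfp964 with 127. The reads of the genes on either side of the minimum overlapped.

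Members with known roles in silencing were read at moderate levels. Zfp57, which keeps methylation at imprinted loci, had 274 reads at 48 positions, and Zfp445, which shares that role, had 204 reads at 44 positions. Zfp568, the KRAB repressor of a placental Igf2 transcript, had 77 reads at 22 positions. Zfp809, which targets proviral DNA in stem cells, was not a member, with 4 sense reads at 3 positions and 25 antisense reads at 7. Zfp36, which binds AU-rich mRNA for decay, had 15 sense reads at 10 positions and was not a member either.

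Other named members work outside KRAB silencing. Zfp326, a subunit of a complex that couples elongation to splicing, had 448 reads at 70 positions. Zfp148, a promoter-binding factor, had 401 reads at 59 positions. Zfp207, a spindle assembly protein that binds Bub3, had 785 reads at 51 positions, 305 of them at 1 position. Zfp217, which works with co-repressor complexes, had 215 reads at 32 positions, and Zfp143, a promoter-binding activator, had 95 reads at 18.

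The KRAB co-repressor list, 21 genes for Trim28 and the proteins that act with it, was read as well. Of these, 20 had 15 or more sense start positions, beside 23.3% of all protein-coding nuclear genes, and Sumo2 had 12. Their median was 44 positions and 504 reads, beside a median of 3 positions over all protein-coding nuclear genes. The highest by positions were Atrx, a chromatin remodeller at heterochromatin, with 433 positions and 5684 reads, the remodeller Chd4 with 366 and 12103, the DNA methyltransferase Dnmt1 with 179 and 2016, and the HP1 protein Cbx1 with 177 and 9090. Trim28 itself had 44 positions and 317 reads. The stem cell and fibroblast marker lists below had medians of 62.5 and 183 positions, so a high median is not particular to the co-repressor list. That list is given as a description, since no control library could be set against it.

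Of 12 embryonic stem cell markers 10 reached 15 positions, as did 23.3% of all protein-coding nuclear genes. The highest were L1td1 at 552 positions and Lefty2 at 206, and Nanog (11) and Utf1 (3) did not reach 15. All 6 fibroblast markers did, with Col1a1 at 311 positions and Postn at 269 the highest. The part of fibroblast RNA in the members' reads was not tested.

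Reads on the strand opposite to the mRNA were not used to choose the members. They came to 8403 reads at 758 positions, 17.96% of all the members' start positions. The antisense share of a member's start positions had a median of 17.0%, beside 16.7% in the 5012 other genes with 15 sense positions. In no member did the Clopper-Pearson 95% interval of this share lie above 50%, as it did in 0.339% of the other genes. The interval lay below 50% in 68 of 84 members, beside 83.5% of the other genes. The antisense shares of the members were thus near those of coding genes with the same minimum.

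Zfp106 had the most antisense start positions, 90, with 3871 reads and a share of 24.7% (20.4 to 29.5). Zfp451 had 30 antisense positions (27.5%), Zfp638 had 27 (7.94%), and Zfp292 and Zfp871 had 24 each. For Zfp292 that was 23.5%. Zfp871 had 24 antisense beside 20 sense positions, or 54.5%, and Zfp940 had 20 beside 16, or 55.6%. These 2 alone had more antisense than sense positions, and both intervals hold 50%. At the other end, Zfp513 had 1 antisense beside 105 sense positions, and Zfp507, Zfp788, Zfp975 and Zfp750 had none. For Zfp507, with 32 sense positions and no antisense one, the interval of the antisense share reached 10.9%.

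Counted by reads, 4 of the 84 members had intervals above 50%, beside 5.47% of the other coding genes. Of these, Zfp990 and Zfp623 were named after their values were seen. Zfp143 had 165 antisense beside 95 sense reads, Zfp871 had 223 beside 129, Zfp990 had 312 beside 207, and Zfp623 had 137 beside 97. The antisense reads of Zfp990 came from 6 positions. Of the 84 members, 37 overlap an annotated gene on the other strand, among them Zfp106, Zfp143 and Zfp940, but not Zfp871, Zfp990 or Zfp623. The part of these neighbours in the antisense reads was not tested, and in the 47 members without one the median share was 15%.

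The exon with the most C2H2 motifs, called the zinc finger exon here, was compared with the rest of the main transcript. Where exons tied, the first of them was taken. The share of a member's sense start positions in that exon was set against the exon's share of assignable bases, those where a 34-base read fits this gene alone, because near-identical fingers cannot give reads of 1 gene. A member was called above or below when the Clopper-Pearson 95% interval of its share lay wholly on one side. A motif was found in 80 members, and Zfp330, Zfp503, Zfp365 and Zfp750 had none. Zfp830 has its motif in a single-exon transcript and Zfp384 was not compared, which left 78.

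Of these, 11 were above, 17 below and 50 held the exon's share. These are 14.1% above and 21.8% below. In other coding genes, the exon with the most coding bases was above in 17.5% and below in 16.3%. The finger exon of 26 array genes with other symbols was above in 15.4% (4 genes) and below in 11.5% (3 genes). These genes have 5 or more motifs in that exon, as do 53 of the members compared. Of those 53 members, 5 were above and 14 below. The share above was thus near that of other coding genes over all members, and lower in the 53 than in the 26 array genes. The share below was higher than in the genes set beside them in both comparisons. These margins were not tested.

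Among members above, Zfp638 had 180 of 294 positions (61.2%) in exon 2, which holds 24.5% of its assignable bases and 1 motif. Zfp106 had 10 of 274 (3.65%) in an exon of 85 bases with 0.944% of the bases. None of these 10 positions held more than 5 reads, of 34420 for Zfp106, whose 3 motifs lie in different exons. Zfp462 had 72 of 107 (67.3%) in an exon with 53.6%. Zfp664 had 90 of 92 (97.8%, beside 90.7% of bases) and Zfp949 had 79 of 81 (97.5%, beside 71.0%). In the last 2 the exon also holds the 3′ UTR, and 71 and 75 of their positions lay there. Being above for this exon does not mean that the fingers were read.

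Among members below, Zfp609 had 16 of 124 positions (12.9%) in an exon with 30.4% of the bases. Zfp513 had none of 94 in an exon with 53.2%, with an interval up to 3.85%. Its 105 positions over all isoforms stood at only 16 sites, so this interval is narrower than separate starts would give. Zfp91 had 13 of 70 (18.6%, beside 63.8%). Zfp790 had 28 of 48 (58.3%, beside 84.8%), and Zfp445 had 13 of 35 (37.1%, beside 82.5%). The last 2 are KRAB members with 12 motifs each. Of the members followed whatever their values, Zfp57 was above (24 of 34, 70.6% beside 47.4%), as was Zfp148 (5 of 55, 9.09% beside 1.29%), and Zfp568, Zfp217, Zfp207, Zfp292, Zfp326 and Zfp143 held the exon's share.

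**Figure D3:**
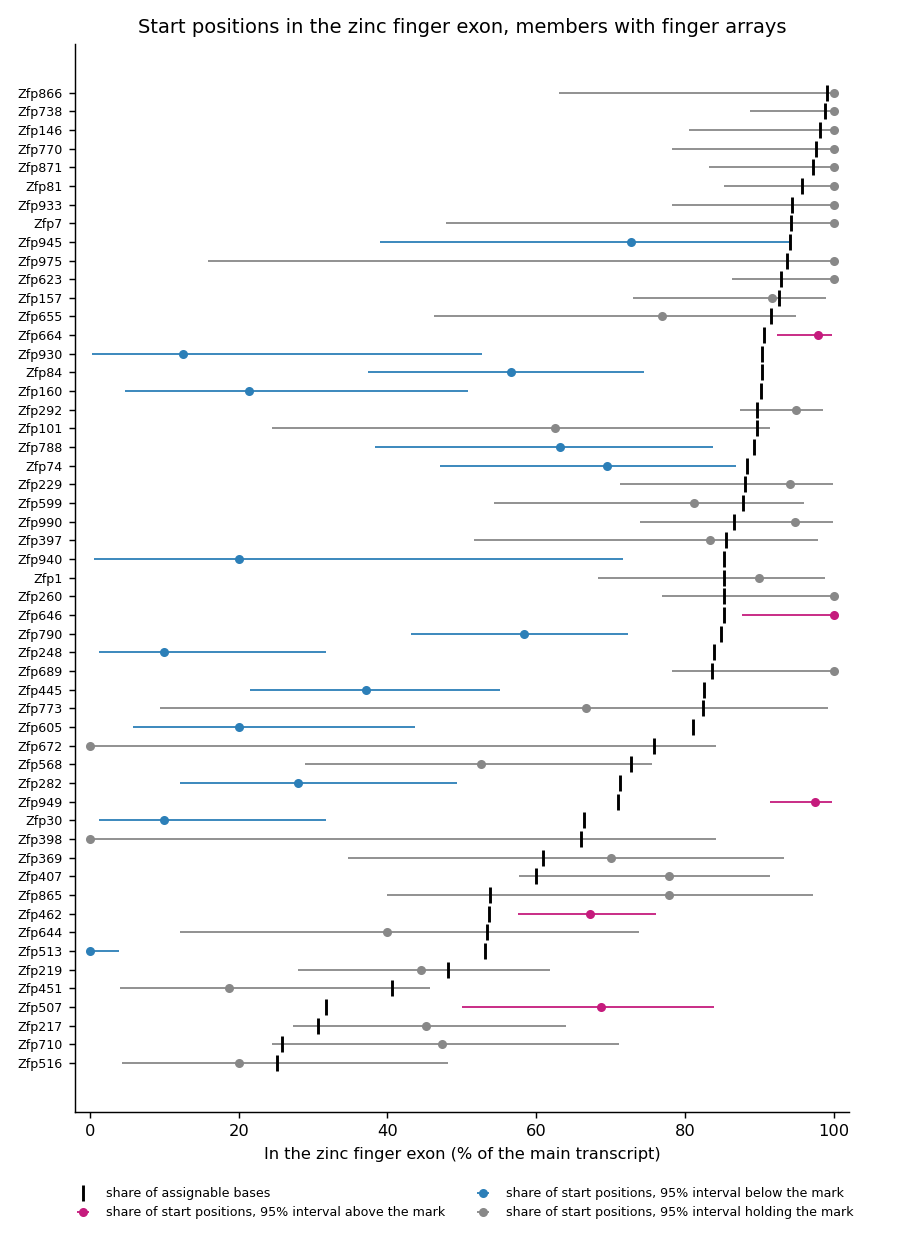
Share of sense start positions in the zinc finger exon (x axis, % of the main transcript), with Clopper-Pearson 95% intervals, for the 53 members with 5 or more motifs in 1 exon, in order of the exon's share of assignable bases (black marks). Of the 53, 5 intervals lie above their mark and 14 below it, and Zfp513 lies at 0 beside 53.2%.

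A finger array, 5 or more motifs in 1 exon, was present in 53 members, and 30 of them also match a KRAB pattern. From the first to the last motif, 5 arrays were above their share of assignable bases and 10 below. Arrays of genes with other symbols were above in 15.4% and below in 23.1% of 26 genes, so in this comparison the members' counts are near theirs. The 5 above were Zfp507 (65.6% beside 26.6%), Zfp646 (28 of 28 positions), Zfp623 (18 of 25 positions beside 40.2% of bases), Zfp260 (64.3% beside 28.0%) and Zfp933 (86.7% beside 22.6%), of which only Zfp933 matches KRAB. Of the 10 below, 8 match KRAB, among them Zfp949 with 1 of 81 positions in its array and Zfp84 with 0 of 30. Against the rest of the coding sequence alone, 3 of 51 member arrays were above and 14 below. Of 25 genes with other symbols, 8% were above and 12% below in that setting. The members' share below was thus higher there, by a margin that was not tested.

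Per assignable kb, the arrays held 4.80 sense start positions, the coding sequence outside them 9.34, the exons before the finger exon 13.2 and the 3′ UTRs 3.87. Medians over the 53 members were lower, at 2.42, 5.57, 4.67 and 2.21. In 37 of the 53 members the array was less dense than the other coding bases, and 14 arrays had no position. Of 28 genes with other symbols, 15 had a less dense array and 6 an array with no position. KRAB arrays had 3.05 positions per kb and the other members' arrays 6.03, while arrays of genes with other symbols had 7.93. Medians over the genes of these 3 sets were 1.441, 3.535 and 3.621, so the latter 2 sets were near each other. The densities other than medians pool genes of different levels, and the differences between the sets were not tested.

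The sums before the finger exon rest in part on Zfp513, which gave 94 of the 330 positions there. Zfp513 also gave 90 of the 450 positions in coding sequence outside the arrays, from 1224 of 48160 assignable bases. With positions within 10 bases counted once, 3 of 78 finger exons were above (3.85%) and 12 below (15.4%), beside 7.71% and 5.66% for the exon with the most coding bases in other genes. Of the 53 arrays, 3 were then above and 3 below, beside 7.69% and 0% of arrays of genes with other symbols.

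Start positions also followed the bases beside them. At the 7th base downstream of a start, A stood at 57.9% of the members' positions, beside 28.0% of their assignable bases, and at the 8th base G stood at 49.98%, beside 23.7%. The pair AG stood at 1037 of 2778 positions on the main transcripts, or 37.3%, while a member's median was 8.26% of assignable bases. The interval of this share lay above the share of bases in 73 of the 84 members and below in none. It lay above in 92.3% of the other coding genes, whose A and G shares were 56.3% and 50.2%, so the preference is not particular to the members. It touches every count of start positions given here, and its cause was not tested.

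In Zfp451 AG stood at 9 of 16 positions, in Zfp292 at 41.0% and in Zfp609 at 33.9%. Zfp949 and Zfp513, whose starts are packed into short stretches, had 24.7% and 25.5%, the lowest of the 10 members with most positions. At the position with most reads of all, in Zfp106, the pair is absent, as its sequence above shows.

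Along the finger unit, start positions were most frequent where the finger meets the linker. The members hold 470 units of exactly 84 bases in 64 genes, with 139 start positions in assignable bases. Bases 61 to 72 held 44 of these (31.7%), or 8.43 per kb, and the next 12 bases, 73 to 84, held 8, or 1.56 per kb. Of the 44, 18 lay in the last 3 bases of the finger and 24 in the first 3 of the linker. Base 64 had 15 positions in 12 genes and base 62 had 13 in 11 genes. AG stood downstream of base 64 in 61.2% of units and of base 62 in 42.5%, as the sequences of Zfp81, Zfp933, Zfp866 and Zfp990 show. Base 48 had 6 positions and AG in 49.3% of units, and base 67 had none and AG in 37.4%. The part of AG in this pattern was not tested.

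In genes with other symbols, 244 such units held 62 positions, with 5.999 per kb in bases 61 to 72, where 13 of them lay, 5.90 in bases 49 to 60 and 3.27 in bases 73 to 84. With start positions and bases next to AG alone, 2 of 51 arrays of members were above and 2 below, in place of 5 and 10 of 53, beside 12% above and 12% below in 25 genes with other symbols.

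**Figure D4:**
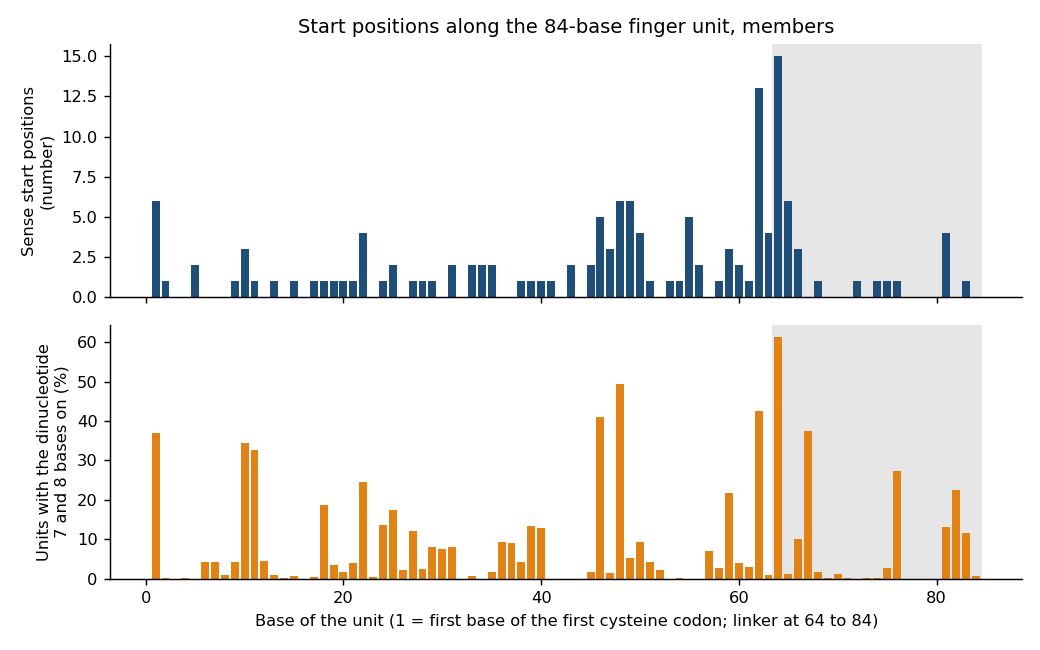
Upper panel, number of sense start positions of members at each base of the 84-base finger unit (x axis, bases), and lower panel, share of assignable units (%) with the dinucleotide described in the text at the 7th and 8th base downstream, with the linker shaded. Bases 62 and 64 hold 13 and 15 of the 139 positions and have the dinucleotide in 42.5% and 61.2% of units.

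Some members were read mainly outside their main transcript. Of the 3462 positions, 80.2% lay on the main transcript, 10.1% on other coding isoforms and 7.11% on retained intron isoforms, beside 88.2%, 3.96% and 6.31% in the other coding genes. In 20 members more than 50% of the positions lay on other isoforms. Zfp740 had 51 of its positions on other coding isoforms and 1 on the main transcript, and Zfp451 had 63 and 16. Zfp146 had 38 positions and Zfp945 had 32 on retained intron isoforms. Zfp740, Zfp146 and Zfp945 were named after their values were seen, Zfp945 also for its reads. Positions on other isoforms do not enter the finger exon comparison, which for these members rests on few positions.

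Reads that fitted several genes were left out, and their share was not compared with that in other coding genes. In all, 108152 reads fitted several genes including a numbered Zfp gene, but only 747 of them fitted numbered Zfp genes alone. In 25 members such reads outnumbered the member's own. Zfp7 had 61 reads of its own and 17929 shared ones, and Zfp839 had 77 and 7323. Assignable bases made up a median of 99.4% of a member's exons, with 41.3% in Zfp975 and 54.0% in Zfp990 as the lowest. Over the rest of those 2 mRNAs no read of 34 bases could be given to them alone.

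The table holds reads of 2 main lengths, 36 and 40 bases, which need not be separate libraries. Reads of 36 bases made up 9.15% of the members' reads of these lengths and 20.2% of those in the whole table. A member's share had a median of 9.65%, beside 12.5% in the other coding genes, and ran from 0.493% to 43.0%. Zfp106 had 1773 reads of 36 bases and 32202 of 40, and Zfp511 had 1268 and 4615. Of the 1518 start positions seen with 36-base reads, 924 (60.9%) were also seen with 40-base reads, beside 58.2% in the other coding genes.

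**Figure D5:**
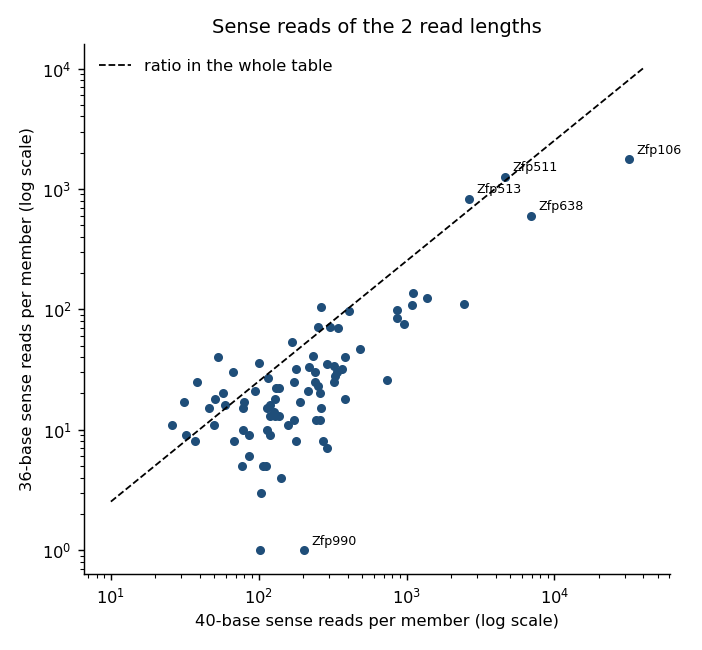
Sense reads of 36 bases (y axis, log scale) against those of 40 bases (x axis, log scale) for each member, with the ratio of the whole table as a dashed line. Most members lie below the line, Zfp106 at 1773 beside 32202 reads, and Zfp511 and Zfp513 lie near it.

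The members lie on 19 chromosomes. Chromosome 7 carries 18 of them (21.4%), beside 6.60% of the other coding genes, and 89 of the 365 numbered Zfp genes. Chromosomes 5 and 17 carry 8 each. The crowding on chromosome 7 was thus already present in the list of symbols, of which the members are 18 of 89 there.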

How the data were processed

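The authors deposited 1 table of distinct read sequences, each with a read count that is not scaled, per the deposited file itself. The submitters' processing notes name the build mm9, and no aligner is named there. The leading 6 bases were dropped and at least 20 bases were matched by bwa 0.7.19, at no more than 2 mismatches and without gaps, to the transcripts of GENCODE M21 (GRCm38), which searched 31529044 reads. Positions are genomic, so that isoforms share them. The main transcript is 1 coding transcript per gene, the one with the longest coding sequence. Motifs were found in its translation as C, 2 to 4 residues, C, 12 residues, H, 2 to 6 residues, H, and KRAB by its pattern. Intervals are exact, from scipy 1.17.1. The placement and the interval calls were run on simulated data. The simulated start positions were independent, so this run does not cover the clustering of real ones. The members and lists were chosen with earlier results of these data known.

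Named genes are the 10 members with most sense positions and the 10 with most reads, the 5 with most antisense positions and the 5 with the highest share at 1 position, those at 15 and the genes at 14 positions, the 5 with most positions above and below for the finger exon, members above 50% antisense, and 14 followed whatever their values. Members named outside these rules, such as Zfp84, Zfp646 and Zfp7, were named after their values were seen. Alternatives changed the mismatches, read lengths, minima, uniqueness, and the unit counted. Tests between the labelled groups were left out, since no column is tied to a library.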

Additional observations from a re-analysis of the deposited data

How the results depend on the processing

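No paired analysis was possible because the table is a single pool without sample columns. The number of genes kept at 15 sense start positions, 84, became 29 with 36-base reads only. It was 185 with reads of several genes included and 46 with positions within 10 bases joined. Members above 50% antisense, 0, became 4 by reads and 1 by distinct sequences. Those below 50%, 68, became 41 with 36-base reads only and 39 among the 47 without a gene on the other strand. Finger exons above and below, 11 and 17, became 30 and 27 by reads, beside 28% and 48.8% for the exon with most coding bases in other genes. Those above became 5 with 36-base reads only, 7 against the rest of the coding sequence, 6 with at least 2 reads a position and 3 with positions joined. Next to AG alone, 4 of 75 were above (5.33%) and 10 below (13.3%), beside 8.77% and 5.69% in other genes. For the stretch from first to last motif, over all members with a motif, 7 were above and 10 below. These became 4 and 3 with positions joined, 6 and 16 against the rest of the coding sequence, and 3 and 2 next to AG alone. The median share at the highest position, 17.8%, was 12.97% by distinct sequences, 22.2% with 36-base reads and 20.4% with 40-base reads. The causes were not tested, and some of these settings use fewer reads or positions. Joined positions and AG were chosen after seeing the data. In the other alternatives run, these counts over all members stayed within 1.5 times. Among the 53 array members alone, exons above, 5, became 21 by reads, 9 by distinct sequences, 3 with 36-base reads only and with at least 2 reads a position, 2 against the rest of the coding sequence and next to AG alone, and 1 with positions joined, and exons below, 14, became 8 next to AG alone. Members with few positions limit the exon calls: at 15 positions an interval spans much of the range.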
